A study of Rattus norvegicus with 2 samples.

Results

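The 10 genes described here encode enzymes that make eicosanoids, the signalling lipids derived from arachidonic acid, together with the activating protein of 5-lipoxygenase. They are Ptgs1, Ptgs2, Ptges, Ptges2, Ptges3, Hpgds, Tbxas1, Alox5, Alox5ap and Pla2g4a, and they were chosen by name, as every probe set that the platform annotation assigns to 1 of these genes alone. All 10 were represented, by 12 of the 20826 probe sets naming 1 gene and by 10 of 14217 genes. Total RNA came from microglia, the macrophages that live in the brain, of the rat strain Sprague Dawley, kept in DMEM with serum. The resting group was 1 array of cells with no exposure, and the other group was 1 array of cells after 3 h of oxygen-glucose deprivation (OGD), which withholds both to mimic ischaemia in a dish. The labels do not say how many animals or cultures each array stands for. With 1 array per group there was no replicate error and no test, so each difference describes these 2 arrays and not the condition.

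In this pathway cytosolic phospholipase A2 frees arachidonic acid from membrane lipids, and the cyclooxygenases turn it into prostaglandin H2. Terminal synthases then convert prostaglandin H2 into prostaglandin E2, prostaglandin D2 or thromboxane A2, while 5-lipoxygenase, helped by its activating protein, opens the branch to leukotrienes. Microglia are known to make prostanoids, and in brain inflammation the inducible pair of cyclooxygenase-2 and the microsomal prostaglandin E synthase is the best known route to prostaglandin E2.

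The deposited values were linear intensities. Each array's median over its 31042 probe sets other than controls, 19.6 at rest and 19.7 after OGD, served as the floor under which a value was not counted as measured. Of the 10 genes, 8 were above the floor on both arrays, and Ptgs2 and Alox5 were below it on both. Of the 12 probe sets 9 were above and 3 below the floor on both arrays, and 0 had exactly equal values on both, against 8.70% of all non-control probe sets. Over the 9580 genes measured on at least 1 array the median log2 difference, OGD minus resting, was -0.008, and the SD over the 9168 measured on both was 0.148. Where a gene had more than 1 probe set above the floor (1902 genes), the differences of its probe sets scattered with an SD of 0.147, which is the only measure of error these data offer. It leaves out whatever the probe sets of an array share, and the spread between cultures. Of 18 microglial and macrophage markers on the array, 17 were measured, 16 of them on both arrays. The brightest were Trem2 at 604 at rest and 583 after OGD and Cd68 at 371 and 360. Some markers of the labelled cell type were thus present. Others were nearer the floor. Their mean intensities over both arrays were 20.6 for Csf1r, 23.2 for Tmem119, 30.8 for Cx3cr1 and 33.6 for P2ry12. Markers of other cell types were measured for 3 of 8 astrocyte, 4 of 7 oligodendrocyte lineage, 1 of 8 neuron, 3 of 8 fibroblast and 3 of 7 endothelial genes on the array. Summed over all markers on the array, those under the floor included, the intensities of these lists lay between 129 and 246 at rest and between 141 and 252 after OGD. Of the 3 measured astrocyte markers 2 were higher after OGD and 1 lower, with Aldoc at 121 at rest and 119 after OGD, Gfap at 27.4 and 36.9 and Slc1a2 at 23.8 and 32.04. RNA from fewer cells of a type and less RNA per cell cannot be told apart in such bulk samples.

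**Figure D1:**
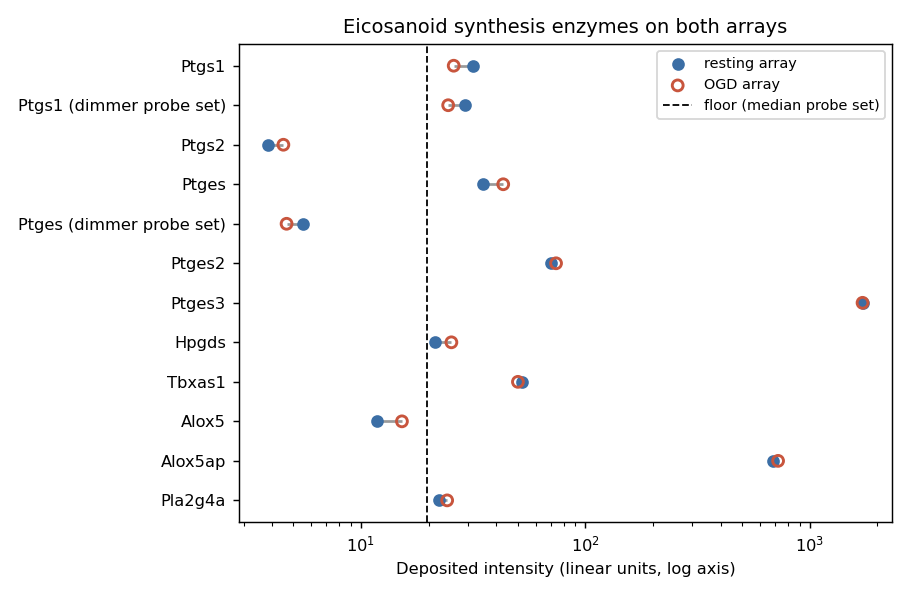
Deposited intensity of each of the 12 probe sets on the resting array (filled points) and the OGD array (open points), on a log axis, with the floor of the resting array as a dashed line. Ptgs2, Alox5 and the dimmer Ptges probe set lie left of the floor, and only Ptges3 and Alox5ap lie far to the right of it.

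The upstream sequences of 3 genes are shown because they belong to the inducible and constitutive cyclooxygenases and to the synthase with the highest difference among the 8 measured genes. Each is the 250 bases before the annotated start, from RefSeq on the rat assembly GRCr8, written 5′ to 3′ on the strand of the gene. Capitals mark matches, on either strand, to the hypoxia response cores ACGTG and GCGTG, the GC box GGGCGG, the CCAAT box, the TATA box TATAAA and the cAMP response core TGACG. Ptgs1 lies at chr3:39981169-39981418 on the plus strand, Ptgs2 at chr13:64713813-64714062 on the plus strand and Ptges at chr3:34586988-34587237 on the minus strand.
Ptgs1: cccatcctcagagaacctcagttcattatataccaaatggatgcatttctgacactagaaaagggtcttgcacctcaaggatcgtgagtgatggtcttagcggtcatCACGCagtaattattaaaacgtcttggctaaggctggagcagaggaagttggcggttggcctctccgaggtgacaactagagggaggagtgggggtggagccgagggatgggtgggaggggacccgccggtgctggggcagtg
Ptgs2: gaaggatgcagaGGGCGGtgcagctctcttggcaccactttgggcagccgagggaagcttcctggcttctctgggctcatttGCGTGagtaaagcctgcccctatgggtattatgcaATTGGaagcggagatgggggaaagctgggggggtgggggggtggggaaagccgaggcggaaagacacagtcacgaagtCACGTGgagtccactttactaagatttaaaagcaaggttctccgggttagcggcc
Ptges: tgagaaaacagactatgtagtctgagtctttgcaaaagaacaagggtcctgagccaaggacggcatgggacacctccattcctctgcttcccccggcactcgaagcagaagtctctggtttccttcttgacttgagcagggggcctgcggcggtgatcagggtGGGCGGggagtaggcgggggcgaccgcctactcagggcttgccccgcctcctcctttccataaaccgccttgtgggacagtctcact
The Ptgs2 window held the core ACGTG in both orientations within 1 overlapping site that begins 55 bases before the start, and the core GCGTG at 168 bases. It also held a CCAAT box at 133 bases and a GC box at 238 bases. The Ptgs1 window held 1 core, GCGTG on the opposite strand, at 143 bases. The Ptges window held a GC box at 87 bases and neither hypoxia core. Of the 7 members with a sequence in the table, 3 held a hypoxia core (Ptgs1, Ptgs2 and Ptges3), and 37.9% of the 27457 windows of this length in the rat reference held at least 1 core. By motif the shares of windows were 16.9% for ACGTG, 27.2% for GCGTG, 32.4% for the GC box, 34.3% for the CCAAT box, 13.1% for the TATA box and 19.0% for the cAMP core. A match describes letters only and is no evidence of a bound factor.

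The comparison asked which of these transcripts differed by 1.5-fold, the threshold of the series' design, between OGD-exposed and resting cells. None of the 8 measured genes did: 0 of 8 passed 1.5-fold, where 0.115% of all measured genes (11 of 9580) did, so a count of 0 among 8 is near the background. Of the 8 genes 5 were higher and 3 lower on the OGD array, against 42.8% of all measured genes higher and 51.3% lower. Their differences ran from -0.29 for Ptgs1 to 0.31 for Ptges on the log2 scale, with a median of 0.077 beside -0.008 for all measured genes. The median size of the difference, without its sign, was 0.099 for the enzymes and 0.093 for all measured genes.

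**Figure D2:**
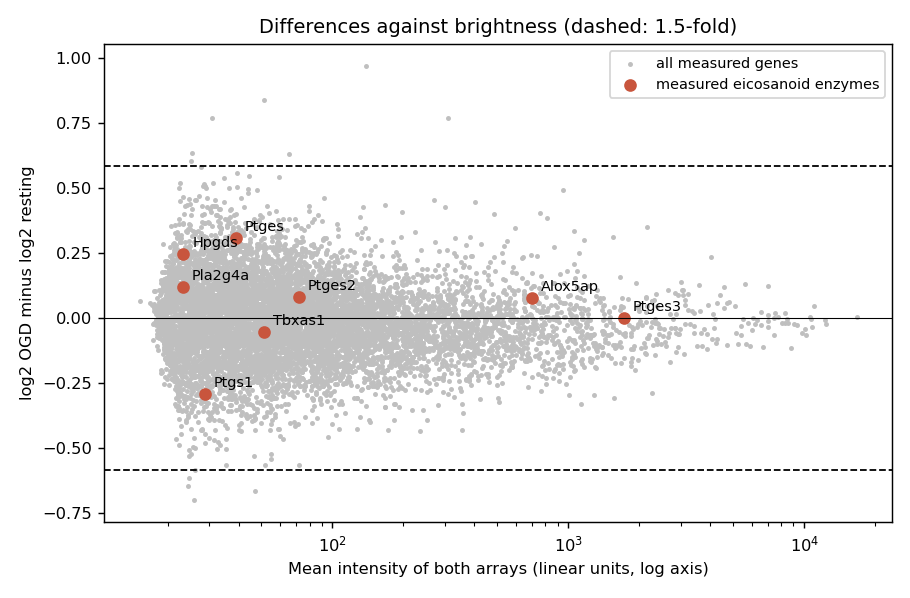
Difference between the arrays (log2 OGD minus log2 resting) against mean intensity on a log axis, for all 9580 measured genes (grey) and the 8 measured eicosanoid enzymes (red). All 8 lie between the dashed lines at 1.5-fold, with Ptges highest at 0.31 and Ptgs1 lowest at -0.29, both in the dim range where the cloud is widest.

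Of the cyclooxygenase genes 1 was measured. Ptgs1, which encodes the constitutive cyclooxygenase-1, had an intensity of 31.7 at rest and 25.9 after OGD in its brighter probe set. Its other probe set had 29.0 at rest and 24.5 after OGD. Both probe sets were lower on the OGD array, by 1.22-fold and 1.18-fold, or -0.29 and -0.24 on the log2 scale. The pair thus differed from each other by less than the SD of 0.147 between probe sets of a gene, and Ptgs1 was the 1 member measured by more than 1 probe set above the floor. Among 3169 genes within 1.5-fold of its brightness and above the floor on both arrays, the SD of the difference was 0.168 and 8.24% had a larger difference in either direction. A difference of this size was therefore not rare at this brightness.

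Ptgs2, which encodes the inducible cyclooxygenase-2, was listed at 3.87 at rest and 4.51 after OGD, at 0.20 and 0.23 times the floor. Its single probe set was under the floor on both arrays, so no fold is given, and a transcript that low could not be told from one that is absent. Values of this probe set do not show whether Ptgs2 responded to OGD.

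All 3 prostaglandin E synthases were measured. Ptges encodes the microsomal synthase that works with cyclooxygenase-2, and it had 34.8 at rest and 43.0 after OGD. It was thus 1.24-fold higher on the OGD array, at 0.31 on the log2 scale, the largest positive difference of the 8 measured members. Of 3500 genes of like brightness 7.17% had a larger difference, and the SD there was 0.166. The other Ptges probe set was listed at 5.53 at rest and 4.66 after OGD, under the floor on both arrays and in the opposite order, so the difference rests on 1 probe set.

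Ptges2, a membrane-associated synthase, had 70.1 at rest and 74.0 after OGD, a log2 difference of 0.079. That is smaller than the SD of 0.145 among 2837 genes of like brightness, and 56.8% of them differed more. Ptges3, a cytosolic synthase better known as the Hsp90 co-chaperone p23, had 1720.3 at rest and 1717 after OGD. Its log2 difference of -0.003 was the smallest of the members, and 98.8% of the 169 genes of like brightness differed more. Its sign turned with scaling, to 0.007 after quantile normalization and 0.032 after removal of the loess trend. Of the 3 synthases, Ptges alone lay beyond the SD of genes of its own brightness.

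Hpgds and Tbxas1 encode the terminal synthases of the other prostanoids measured. Hpgds, the haematopoietic prostaglandin D synthase of microglia, macrophages and mast cells, had 21.4 at rest and 25.3 after OGD, which is 1.18-fold higher or 0.24 on the log2 scale. Both values lay close to the floor, at 1.09 and 1.29 times it, and 14.3% of 2225 genes of like brightness differed more. That set leaves out genes under the floor on either array, so this share may be too low. Mast cell markers were on the array for 9 of 10 genes. Of these, 5 were measured, 4 of them higher and 1 lower on the OGD array. The summed intensity of all 9, those under the floor included, was 244 at rest and 261 after OGD, and no marker was listed at 0. The brightest, the tryptase gene Tpsb2, had 72.3 at rest and 94.0 after OGD, while Kit had 39.4 and 41.4 and Tpsab1 39.7 and 40.7. The difference of Tpsb2 exceeded that of the sum, so the other markers summed to less after OGD than at rest. The 1 lower marker was Mcpt1, with a log2 difference of -0.34, where Tpsb2 had 0.38. The part of such cells in the Hpgds difference was not tested.

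Tbxas1, the thromboxane A synthase found in platelets and in macrophage-lineage cells, had 52.0 at rest and 50.05 after OGD. The log2 difference was -0.056, within the SD of 0.156 among 3339 genes of like brightness, and 71.4% of these differed more. Platelet and megakaryocyte markers were on the array for 5 of 8 genes and measured for 4, with 3 lower after OGD and 1 higher. The summed intensity of all 5, 1 of them under the floor on both arrays, was 294 at rest and 282 after OGD. Pf4 was the brightest of them, at 135.0 at rest and 124 after OGD, followed by Itga2b at 51.5 and 52.8 and Treml1 at 48.7 and 46.7. The part of such cells in the values of Tbxas1 and Ptgs1 was not tested. Of 17 measured microglial markers 15 were lower on the OGD array, with a median log2 difference of -0.081, beside 51.3% of all measured genes lower. The lower ones ran from -0.009 for Laptm5 to -0.26 for P2ry12. Most were smaller in size than the SD of 0.147 between probe sets of a gene. Csf1r was above the floor on 1 array only, so its difference is a bound. The 2 higher were C1qc at 0.29 and Lyz2 at 0.041. The summed intensity of all 18 microglial markers on the array, 1 of them under the floor on both arrays, was 2016 at rest and 1952 after OGD. The part of microglial content in the Ptgs1 difference was likewise not tested.

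In the leukotriene branch 1 of the genes was far above the floor and the other below it. Alox5ap, which encodes the membrane protein that presents arachidonic acid to 5-lipoxygenase, had 685.0 at rest and 721.9 after OGD. Its log2 difference of 0.076 lay within the SD of 0.120 among 419 genes of like brightness, of which 53.0% differed more. Alox5, the 5-lipoxygenase itself, was listed at 11.8 at rest and 15.2 after OGD. Both values were under the floor, at 0.60 and 0.77 of it, so it is given no fold. Neutrophils are another known source of Alox5, and of 5 neutrophil markers on the array 1 was measured, Cxcr2, at 25.4 at rest and 24.3 after OGD. Camp (16.8 and 19.4) and Csf3r (5.95 and 6.98) were under the floor on both arrays.

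Pla2g4a, the cytosolic phospholipase A2 that supplies arachidonic acid to both branches, had 22.3 at rest and 24.2 after OGD. It lay at 1.14 and 1.23 times the floor, and its log2 difference of 0.12 was smaller than the SD of 0.168 among 2213 genes of like brightness. In the RefSeq annotation of GRCr8 it is a neighbour of Ptgs2 on chromosome 13, with 2 genes between them (a pseudogene and a long non-coding RNA) and 0 protein-coding ones. The neighbours cannot be compared here, since Ptgs2 was not measured.

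Between the members the widest gap was that of Ptges and Ptgs1, whose differences were 0.60 apart on the log2 scale. The pair was picked as the highest and lowest of the measured members. With a pseudocount at the 25th percentile the differences were 0.25 for Ptges and -0.23 for Ptgs1. Hpgds stood on the side of Ptges, and Tbxas1, Ptges2, Ptges3, Alox5ap and Pla2g4a lay between them. Ranked by size among the 9580 measured genes, the difference of Ptges was at position 450, that of Ptgs1 at 516 and that of Hpgds at 953, while the next, Pla2g4a, was at 3665. The members with the 3 largest differences were all within 2.19 times the floor, whereas Ptges3 and Alox5ap, at 34.9 times the floor or more at rest, had differences under 0.1. Not every dim member differed as much, since Pla2g4a, at 1.14 and 1.23 times the floor, had 0.12. Tbxas1 and Ptges2, at 2.65 and 3.57 times the floor at rest, had differences under 0.1 in size.

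**Figure D3:**
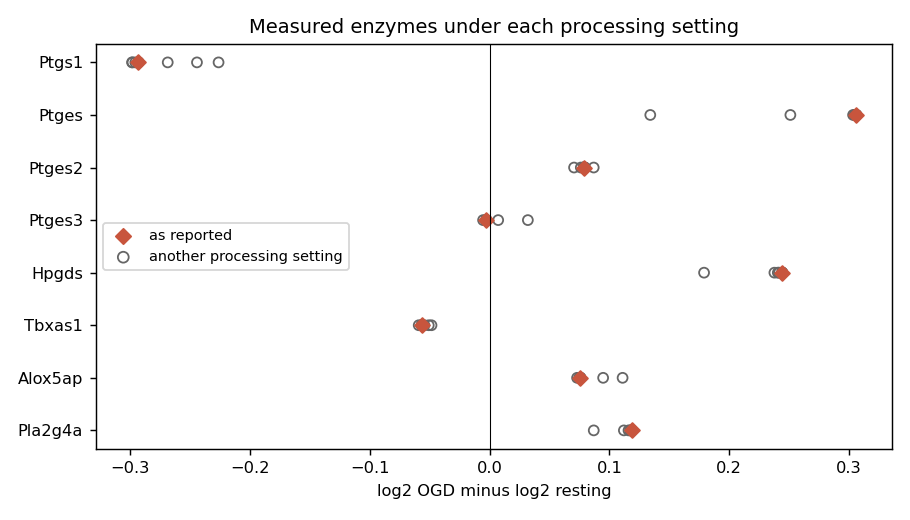
Log2 difference (OGD minus resting) of each of the 8 measured genes as reported (diamonds) and under each other processing setting that measured it (open circles). Ptgs1 stayed between -0.30 and -0.23 and Ptges between 0.13 and 0.31, and only Ptges3 crossed 0.

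The wider pathway was followed in 137 other genes, of which 112 were on the array and 76 measured. None passed 1.5-fold: 0 of 76, beside 0.115% of all 9580 measured genes, so this count is near the background. Of the 76, 31 were higher, 39 lower and 6 equal, with a median log2 difference of -0.019. Of all measured genes 42.8% were higher and 51.3% lower, and the counts by role are to be read beside these shares. Among other phospholipases and endocannabinoid hydrolases 8 of 13 measured genes were higher and 3 lower. The secreted phospholipase gene Pla2g2c had 22.3 at rest, near the floor of 19.6, and 33.3 after OGD (1.497-fold, under the threshold). No other probe set of this gene was above the floor. Pla2g10 had 33.2 and 43.7. Daglb, which makes the endocannabinoid 2-arachidonoylglycerol, had 32.5 and 25.7, in the other direction. For Pla2g6, a calcium-independent phospholipase, the brightest probe set had a log2 difference of 0.18 and another had -0.26.

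Other prostanoid and leukotriene enzymes had 6 of 13 measured genes higher and 7 lower. Akr1b1, an aldose reductase that can make prostaglandin F2alpha, had 3226 at rest and 2930.1 after OGD. Its log2 difference was -0.14 in this probe set and -0.022 in another. Lta4h, which makes leukotriene B4, had 388 and 354, and the glutamyl transferases Ggt1 and Ggt5, which trim leukotriene C4, had log2 differences of 0.19 and 0.18. Of genes for breakdown and transport 2 of 10 were higher and 8 lower, led by the epoxide hydrolase Ephx1 at 0.15 and the prostaglandin reductase Ptgr3 at -0.15. The transporter genes Slco3a1 and Abcc2 had -0.092 and -0.085, the latter as a bound, since Abcc2 was under the floor after OGD.

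Among eicosanoid receptors 5 of 10 were higher and 4 lower. The leukotriene B4 receptor Ltb4r had 96.5 at rest and 104 after OGD, the chemerin and resolvin receptor Cmklr1 79.4 and 84.7, and the prostaglandin E2 receptor Ptger2 31.6 and 29.6. Tbxa2r, the thromboxane receptor, had at least 0.13 on the log2 scale, since its resting value was under the floor. Of genes for the synthesis and re-esterification of arachidonate 2 of 12 were higher and 8 lower. Lpcat3, which returns arachidonate to phospholipids, had 202 at rest and 175 after OGD, with -0.10 in its other probe set. Acsl1 and the lipid carrier Fabp4 had -0.18 and -0.17, and Acsl5 had 0.24 in its brightest probe set and -0.058 in another.

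Partners and regulators of the enzymes had 8 of 18 measured genes higher and 9 lower, with a median of -0.020 that turned to 0.002 after removal of the loess trend, 0.018 with the mean over probe sets and 0.031 in next brightest probe sets. The annexin gene Anxa1, whose product is known as an inhibitor of phospholipase A2 activity, had 33.2 at rest and 42.4 after OGD, and Anxa2 had 592 and 696. The transcription factor Creb1 had 0.23 in its brightest probe set and -0.16 in another. Nr3c1, the glucocorticoid receptor, had 148 and 133.

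**Figure D4:**
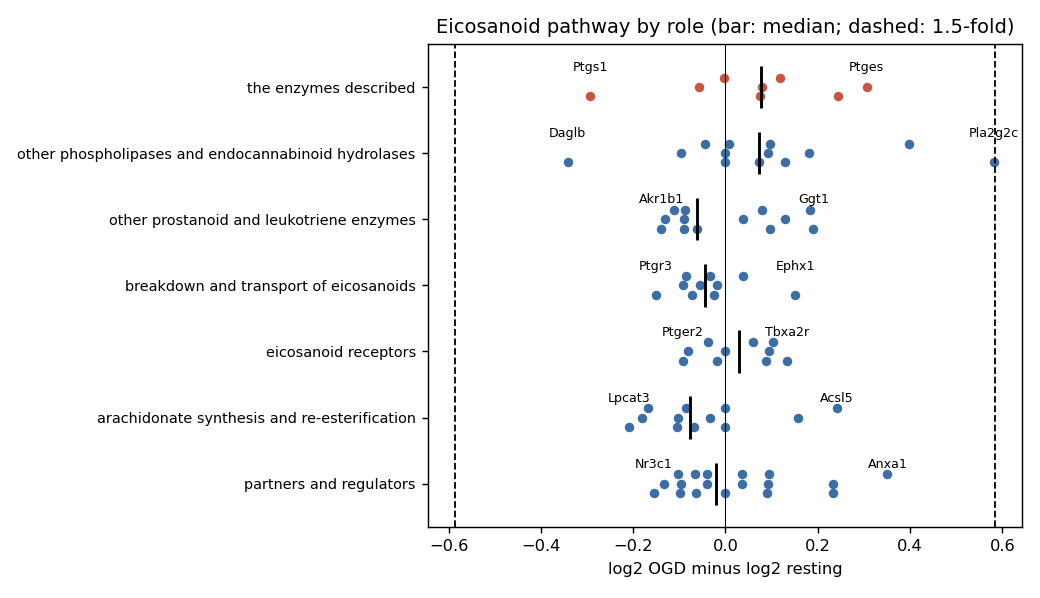
Log2 difference (OGD minus resting) of each measured gene, by role in the eicosanoid pathway, with the 8 enzymes described first (red) and the median of each row as a bar. Every point lies inside the dashed lines at 1.5-fold, and Pla2g2c, at 1.497-fold, is the nearest to them.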

How the data were processed

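Expression was measured on 1 resting and 1 OGD array. The deposited values were linear intensities, 1 per probe set and array, taken as such from their range. How the authors corrected, summarised and scaled them is not given in any source used here.

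Of 31042 probe sets besides 57 controls, 20826 named 1 gene in the platform annotation, and current symbols came from the RefSeq table of GRCr8 by Entrez ID (20758 matched). Each gene was represented by its brightest probe set over both arrays. Values under the floor, each array's median, were set to it for differences, and folds were taken on the log2 scale without a test. Genes of like brightness had a mean intensity within 1.5-fold and were above the floor on both arrays. For members near the floor this leaves out genes that fell under it on 1 array. The spread and shares given there may thus be too small. The calculation was tested on simulated arrays with less scatter than the real ones. Changes of 2-fold were set there only in genes brighter than most of the members. That test does not show how well differences near the floor are recovered. Python 3.11.15 with pandas 2.3.3 and statsmodels 0.14.6 was used. All 10 members were named in full, with up to 4 genes per pathway list by size of difference and up to 3 per marker list by brightness, a few of which are not printed. Further markers were named where they lay near the floor or differed in the opposite direction. The members and lists were chosen with earlier results of these data known. Alternatives were other floors (30th or 70th percentile, or none), a floor required on both arrays, median centring, quantile and loess scaling (span 0.3), the mean or next brightest probe set, probe sets without a suffix, a pseudocount at the 25th percentile, a 2-fold threshold and counts per probe set.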

Additional observations from a re-analysis of the deposited data

How the results depend on the processing

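No paired analysis was possible because each group holds 1 array, and for the same reason no array could be left out. Under all 11 settings and a 2-fold threshold 0 members passed the threshold, also per probe set. The number of all genes past 1.5-fold was 11, and it was 37 with the floor at the 30th percentile, 58 without a floor, 4 with the floor at the 70th percentile, 4 with a pseudocount, 7 in next brightest probe sets, 20 per probe set and 0 at 2-fold. The higher floor leaves 6641 genes measured and 5 members (8 in the main setting), and next brightest probe sets leave 2074 genes and 1 member. The median difference of the members was then that of Ptgs1 alone, -0.24, and elsewhere it stayed between 0.073 and 0.099. Ptges had 0.13 with the higher floor, which its resting value was under. Of the 8 measured members 7 kept their sign under every setting that measured them, and Ptges3 kept it in 8 of 10. Among the 6 pathway lists, the median of other phospholipases turned from 0.072 to -0.14 in next brightest probe sets. That of breakdown and transport turned from -0.044 to 0.087 there and to 0.038 without a floor. That of receptors turned from 0.030 to -0.009 when both arrays had to be above the floor and to 0 without suffixed probe sets. These settings also change which genes of a list are measured. Next brightest probe sets keep only genes with more than 1 probe set. With the floor at the 30th percentile 9 members were measured, Alox5 being the one added. Without a floor the probe sets of Ptgs2 and Alox5 would have log2 differences of 0.22 and 0.37, at intensities that most of the array's probe sets exceed. With 1 array a group, whether Ptges, Ptgs1 or Hpgds differ between cultures could not be measured.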
